A study of Homo sapiens with 4 samples.

Results

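The carriers that bring amino acids and small peptides across the plasma membrane were read in MDA-MB-361 cells on 26 probe sets of 9 genes, out of 54675 probe sets on the array and 12728 genes with a probe set bright enough to test. The members were all probe sets that the platform annotation gives to SLC15A2, SLC7A11, SLC7A5, SLC3A2, SLC1A4, SLC1A5, SLC38A1, SLC38A2 or SLC7A1 as the only gene, and 23 of the 26 passed the filter on dim probe sets. The genes were chosen by their differences from pLKO in these same comparisons, and these differences are given as a description and without a test. MDA-MB-361 is an established human breast cancer cell line. There were 4 arrays of the Affymetrix U133 Plus type. Of these, 3 came from cells that carry different short hairpin RNAs (shRNA) against the transcript of dermcidin (DCD) in the lentiviral vector pLKO-puro, here called IBC-I, IBC-II and IBC-III after the clone numbers 1, 2 and 3 in the labels, and 1 came from cells carrying the pLKO control vector. The labels call the derivatives clones and the study's text also calls them cell pools. All 4 cultures carry the vector backbone and were grown in the medium recommended for the line. With 1 array per hairpin and 1 control array, no difference has a replicate check, and a feature of the pLKO culture enters all 3 comparisons.

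Amino acid carriers divide the work between exchangers and sodium-coupled pumps. SLC3A2 (CD98) is a heavy chain that carries no substrate itself and takes light chains to the cell surface, among them SLC7A5 (LAT1), which exchanges large neutral amino acids such as leucine, and SLC7A11 (xCT), which brings in cystine for glutathione synthesis in exchange for glutamate. SLC1A5 (ASCT2) and SLC1A4 (ASCT1) exchange small neutral amino acids with sodium, SLC1A5 being a main carrier of glutamine. SLC38A1 and SLC38A2 (the SNAT carriers) accumulate glutamine and alanine with sodium, SLC7A1 brings in arginine and lysine, and SLC15A2 (PEPT2) takes up di- and tripeptides with protons. Many of these genes are induced through the transcription factor ATF4 when amino acids run short. In tumours, the carriers of leucine and glutamine are known for feeding growth and mTORC1 signalling.

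The arrays differed in brightness and in RNA quality. The median deposited intensity, a linear value per probe set, ranged from 13.4 in IBC-III to 24.7 in IBC-II and was 20.6 in pLKO. The ratio between the 3' and the 5' control probe sets for ACTB, which grows when RNA is degraded or incompletely labelled, was 9.67 for IBC-I, 2.58 for IBC-II and 42.6 for IBC-III, against 5.29 in pLKO. The probe set of DCD lay between 2 and 7 on all arrays, under the floor of 16 set for low intensities, so the knockdown could not be checked on these arrays. The paper reports lower DCD mRNA and protein in its shRNA derivatives by RT-PCR, immunocytochemistry and immunoblot. All 8 markers of luminal breast epithelium had intensities between 112.8 and 9776, while the 2 measured basal keratins stayed at or under 9. Of the leukocyte markers, the highest value was 25.2. Of the fibroblast markers, COL1A1 lay between 199.9 and 253.9 on all 4 arrays, COL1A2 read 56.3, 45.5 and 26.2 in the 3 shRNA arrays against 27.3 in pLKO, and COL3A1 stayed under the floor, with sums over the 3 markers of 250.3 to 314.7 in the shRNA arrays and 268.6 in pLKO. The endothelial markers summed to 24.2 to 98 in the shRNA arrays and 82.6 in pLKO, mostly from PECAM1 at 41.8, 70.4 and 19.3 against 74.9, while CDH5 stayed under the floor. The part of other cell types in the results was not tested. Intensities were quantile normalized on the log2 scale, and values under 16 were set to 16. A difference is the log2 intensity of a shRNA array minus that of pLKO, taken from the gene's brightest probe set unless another is named. In the values as deposited the median of all genes tested lay -0.42 from pLKO on the log2 scale for IBC-I, 0.35 for IBC-II and -1.07 for IBC-III. After normalization it lay at 0.01, 0 and -0.11, and where the 2 scales give opposite signs for a probe set of a member both are stated.

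Promoter sequence is shown for the members that hold the core of the composite element bound by C/EBP and ATF factors, the element through which ATF4 acts on amino acid response genes. RefSeq promoters (GRCh38.p14) of 250 bases before to 50 bases after each annotated start were given for 8 of the 9 members, 14 promoters in all. Searched on both strands as TGATGNAA, the core was present in 5 of those 8 members, against 4.46% of the 27305 genes in the table. Counted by promoter it was present in 5 of the 14, against 3.62% of 35116 promoters. Each line gives the match in capitals within 30 bases of the gene's strand, and in SLC3A2 and SLC1A4 the match reads on the opposite strand.
SLC3A2: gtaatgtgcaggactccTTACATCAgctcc
SLC1A4: gcggctcccgtTTGCATCAtctccagccgg
SLC1A5: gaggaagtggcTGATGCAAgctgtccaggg
SLC38A1: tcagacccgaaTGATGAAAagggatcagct
SLC7A1: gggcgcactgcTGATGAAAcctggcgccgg
The window of SLC3A2 is chr11:62881719-62881748 on the plus strand and its match begins at transcribed base 38, the first transcribed base being 1, in 1 of the gene's 3 annotated promoters. That of SLC1A4 is chr2:64989381-64989410 on the plus strand, with the match beginning 7 bases before the start in 1 of 2 promoters. That of SLC1A5 is chr19:46784893-46784922 on the minus strand, 97 bases before the third of 3 annotated starts. SLC38A1 holds its match 4 bases before the start at chr12:46266502-46266531 on the minus strand, in 1 of 2 promoters, and SLC7A1 holds it from transcribed base 8 at chr13:29595663-29595692 on the minus strand. No match was found in the listed promoters of SLC15A2, SLC7A5 and SLC38A2. The E-box CACGTG, read by MYC and related factors, was present in SLC7A5 and SLC1A5, against 8.77% of genes, and the core of the antioxidant response element, TGACNNNGC, in SLC7A5, SLC3A2, SLC1A5 and SLC7A1, against 16.1% of genes. None of these matches overlapped another. A match is a description of letters and not a bound site. A gene with more annotated promoters offers more sequence to match, and nothing is read from these shares.

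Across the carriers, SLC15A2 was higher than pLKO with each hairpin, and 7 of the 9 genes were lower than pLKO in both IBC-I and IBC-II, where 30.8% of all genes tested were lower in both. SLC7A11, SLC7A5 and SLC3A2 were at least 2-fold lower in both of those arrays, against 1.98% of all genes tested. Counting IBC-III as well, SLC3A2, SLC1A4 and SLC1A5 were lower in all 3 comparisons, 3 of 9 beside a background of 21.3%, SLC15A2 alone was higher in all 3 beside a background of 18.8%, and 5 went both ways. With IBC-III taken by itself, 3 of the 9 were lower, where 53.8% of all genes were, and 6 were higher, where 45.4% were. Because the genes were chosen with this contrast known, nothing is read from these shares. The median difference of the 9 genes was -0.94 for IBC-I, -0.78 for IBC-II and 0.60 for IBC-III. In the values as deposited 8 of the 9 were lower in IBC-III, where 84.5% of all genes tested were lower, so the direction of 5 members in that array turns with the scale. Without normalization 6 of the 9 were lower in all 3 comparisons, where 20.4% of all genes were, and with centred medians 6 were, where 27.2% of all genes were. With a floor of 64, 0 members were higher in all 3. The limma fit across all 27307 probe sets, with 2 residual degrees of freedom, found 0 probe sets lower and 0 higher at an adjusted p under 0.05 (0% of those tested), and at an unadjusted p under 0.05 it found 125 lower and 81 higher.

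**Figure D1:**
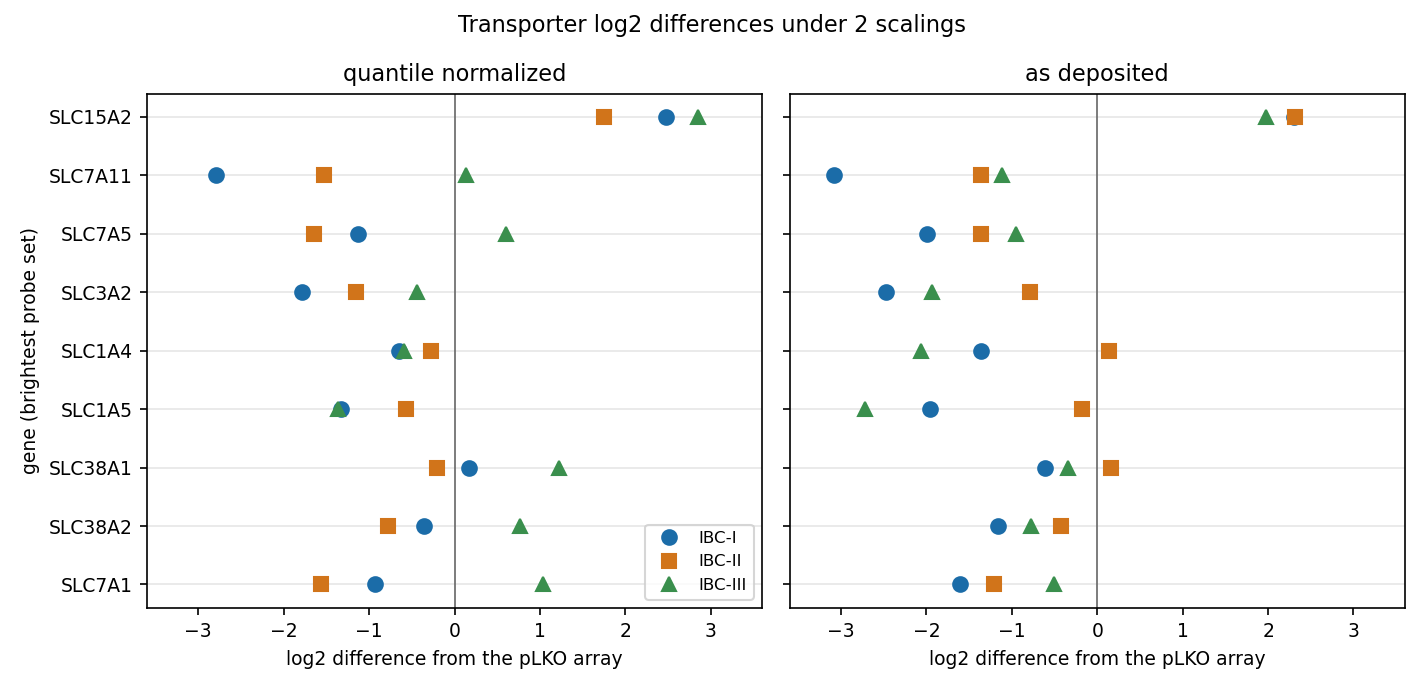
log2 difference from the pLKO array for the 9 carriers, each by its brightest probe set, after quantile normalization (left) and in the deposited values with the same floor (right). Circles stand for IBC-I, squares for IBC-II and triangles for IBC-III, with a vertical line at 0. On the left the triangles of SLC7A11, SLC7A5, SLC38A1, SLC38A2 and SLC7A1 lie above 0, between 0.13 and 1.22, and on the right all 5 lie below it.

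SLC15A2, the peptide carrier, was the member that stood higher with DCD shRNA. Its brightest probe set, 240159_at, had deposited intensities of 79 for IBC-I, 79.4 for IBC-II and 62.9 for IBC-III, against 10.6 in pLKO. The 3 shRNA arrays lie close together and the pLKO array lies apart and under the floor, so the fold is a lower bound on the scale it is computed on. On the normalized scale it was at least 5.57-fold higher for IBC-I, 3.37-fold higher for IBC-II and 7.20-fold higher for IBC-III, and it passed the filter only through the shRNA arrays. It had the lowest pLKO intensity of the gene's 3 probe sets, so it also ranks as the brightest only through the shRNA arrays. In the deposited values with the same floor it was at least 4.94-fold higher for IBC-I, 4.96-fold for IBC-II and 3.93-fold for IBC-III, so the size in each array turns on the scale. At a normalized difference of at least 3-fold with every hairpin it was the only one of the 9 members found, and 0.0157% of all genes tested were that much higher. None of the 9 was that much lower, where 0.181% of all genes were. SLC15A2 was chosen with this contrast known, so nothing is read from these shares. The other probe sets of the gene did not repeat the pattern of 240159_at. For 205316_at the intensities were 11.5 for IBC-I, 92.4 for IBC-II and 19.2 for IBC-III, against 11.8 in pLKO, so that IBC-II alone stood clearly above the rest. For 205317_s_at they were 36.7, 24.6 and 12.8 in IBC-I, IBC-II and IBC-III, against 25.3 in pLKO, with the pLKO value inside the range of the shRNA arrays. The mean of the 3 probe sets gave a mean log2 difference of 1.09, against 2.36 for the brightest. All values lay within a few times the floor, and with a floor of 64 the mean difference of the brightest probe set was 0.44.

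**Figure D2:**
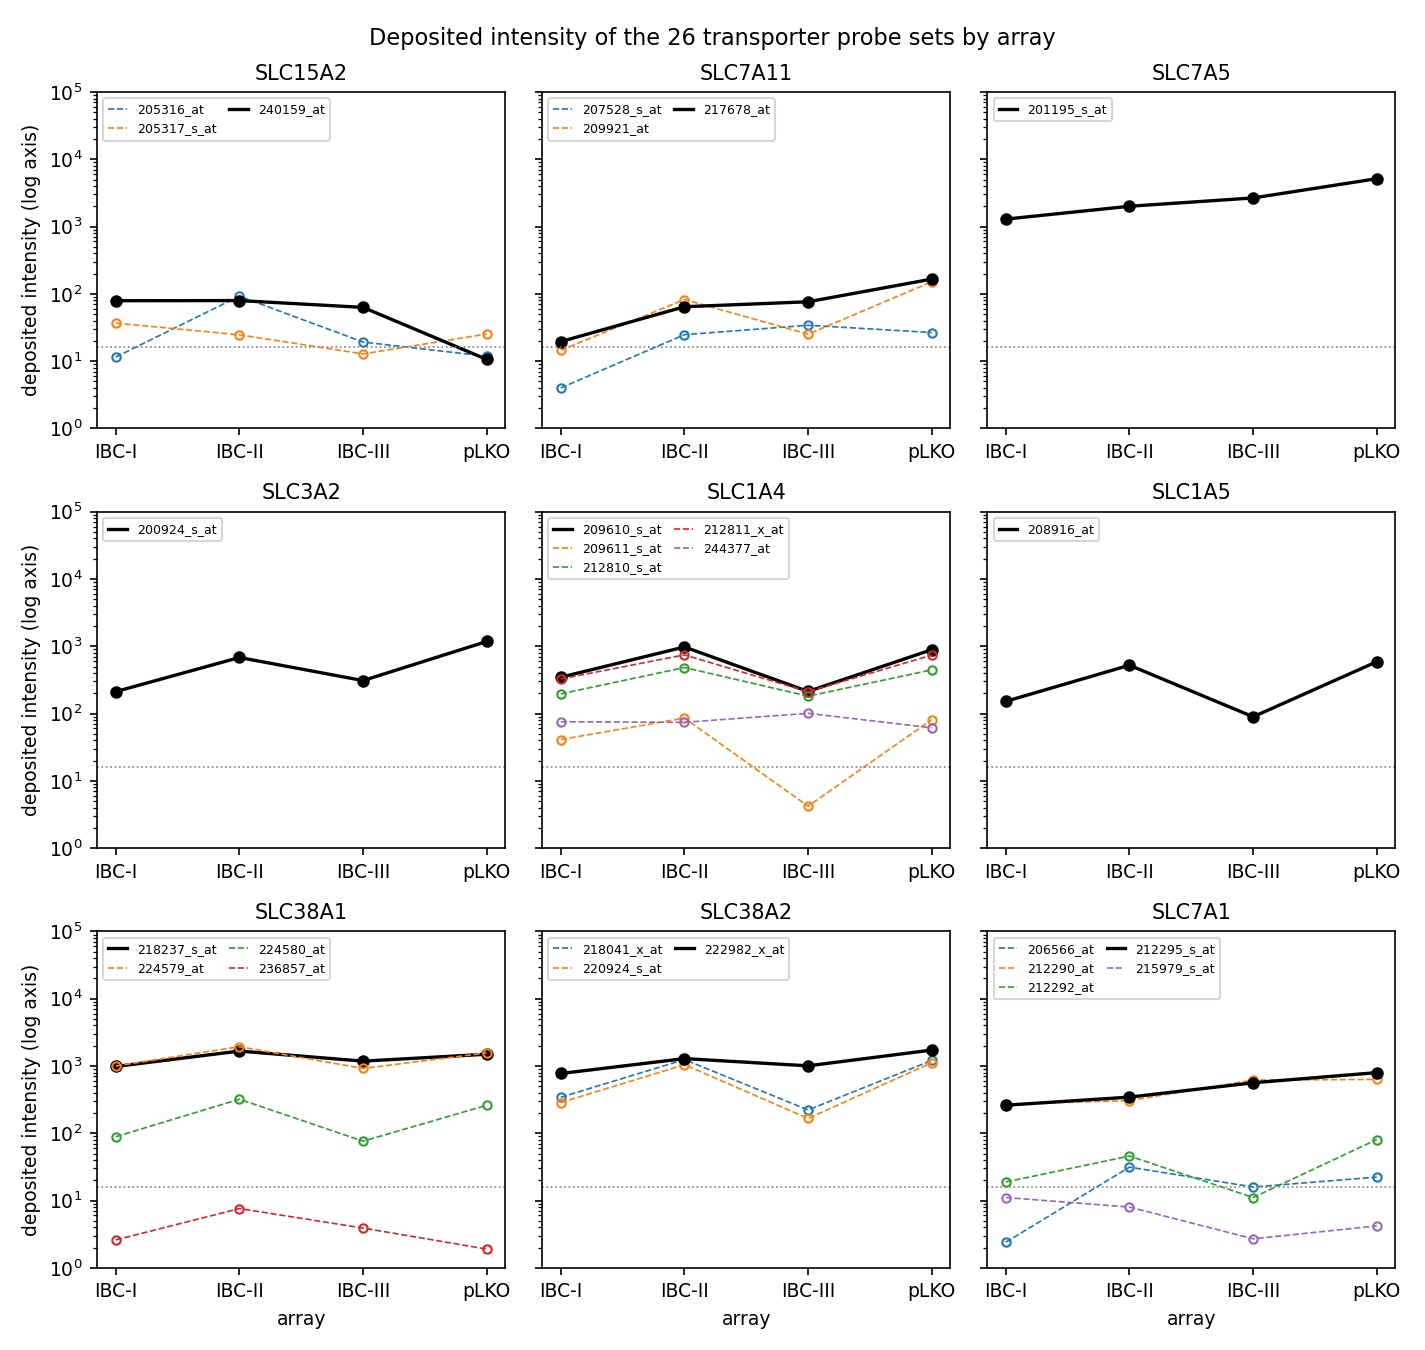
Deposited intensity of the 26 probe sets of the 9 carriers on each array, on a log axis, with 1 panel per gene. Points are single arrays, lines join the values of a probe set (black and filled, the brightest probe set, coloured and open, the others), and the dotted line marks an intensity of 16. The black line of SLC15A2 drops under the dotted line in pLKO, and that of SLC7A5 is highest there at 5145.

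SLC7A11, the cystine exchanger, had its lowest intensities in IBC-I. Its brightest probe set, 217678_at, read 19.5 for IBC-I, 64.3 for IBC-II and 76.2 for IBC-III, against 165.6 in pLKO. All 3 shRNA arrays lay below pLKO in these values. After normalization the difference was -2.80 for IBC-I and -1.53 for IBC-II, while in IBC-III it was 0.13, and -1.12 in the deposited values. A second probe set, 209921_at, read 14.5, 82.3 and 25.1 in IBC-I, IBC-II and IBC-III, against 151.1 in pLKO, and was lower in all 3 comparisons on both scales, by 2.15-fold in IBC-II, 3.12-fold in IBC-III and at least 7.47-fold in IBC-I, where it was at the floor. The third, 207528_s_at, read 4, 24.7 and 34.1 in IBC-I, IBC-II and IBC-III, against 26.6 in pLKO. In IBC-III it was thus higher than pLKO, by 1.18 after normalization and 0.36 as deposited, where 209921_at was lower. Of the 12728 genes tested, 14 had a difference as low as that of SLC7A11 or lower in IBC-I, itself included. The same count was 140 in IBC-II and 7560 in IBC-III. In IBC-I the normalized intensity of 217678_at was 18.7, close to the floor. SLC7A11 was chosen with this contrast known, so nothing is read from these counts.

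SLC7A5, the leucine exchanger, is read by 1 probe set, 201195_s_at, and was lower in IBC-I and IBC-II. Its intensities were 1290 for IBC-I, 2003 for IBC-II and 2662 for IBC-III, against 5145 in pLKO, far from the floor on every array. In these deposited values the lone pLKO array was the highest, and 20.4% of all genes tested were likewise lower in all 3 comparisons. The normalized difference was -1.13 for IBC-I and -1.64 for IBC-II. In IBC-III it was 0.60, and -0.95 as deposited, which is close to the -1.07 of the median gene on that scale. SLC3A2, the heavy chain that SLC7A5 and SLC7A11 share, is also read by 1 probe set, 200924_s_at. It had intensities of 212 for IBC-I, 681.2 for IBC-II and 309.3 for IBC-III, against 1179 in pLKO. It was lower than pLKO with each hairpin on every scale used here, by 3.44-fold for IBC-I, 2.23-fold for IBC-II and 1.36-fold for IBC-III after normalization. Over the 3 comparisons SLC3A2 averaged -1.13 ± 0.67 on the log2 scale and SLC7A5 -0.72 ± 1.17 (SD, n = 3), an SD that mixes hairpins and holds no replicate of pLKO. The heavy chain and both light chains stood lower together in IBC-I and IBC-II. In IBC-III all 3 lay below pLKO in the deposited values, and SLC3A2 alone did after normalization.

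**Figure D3:**
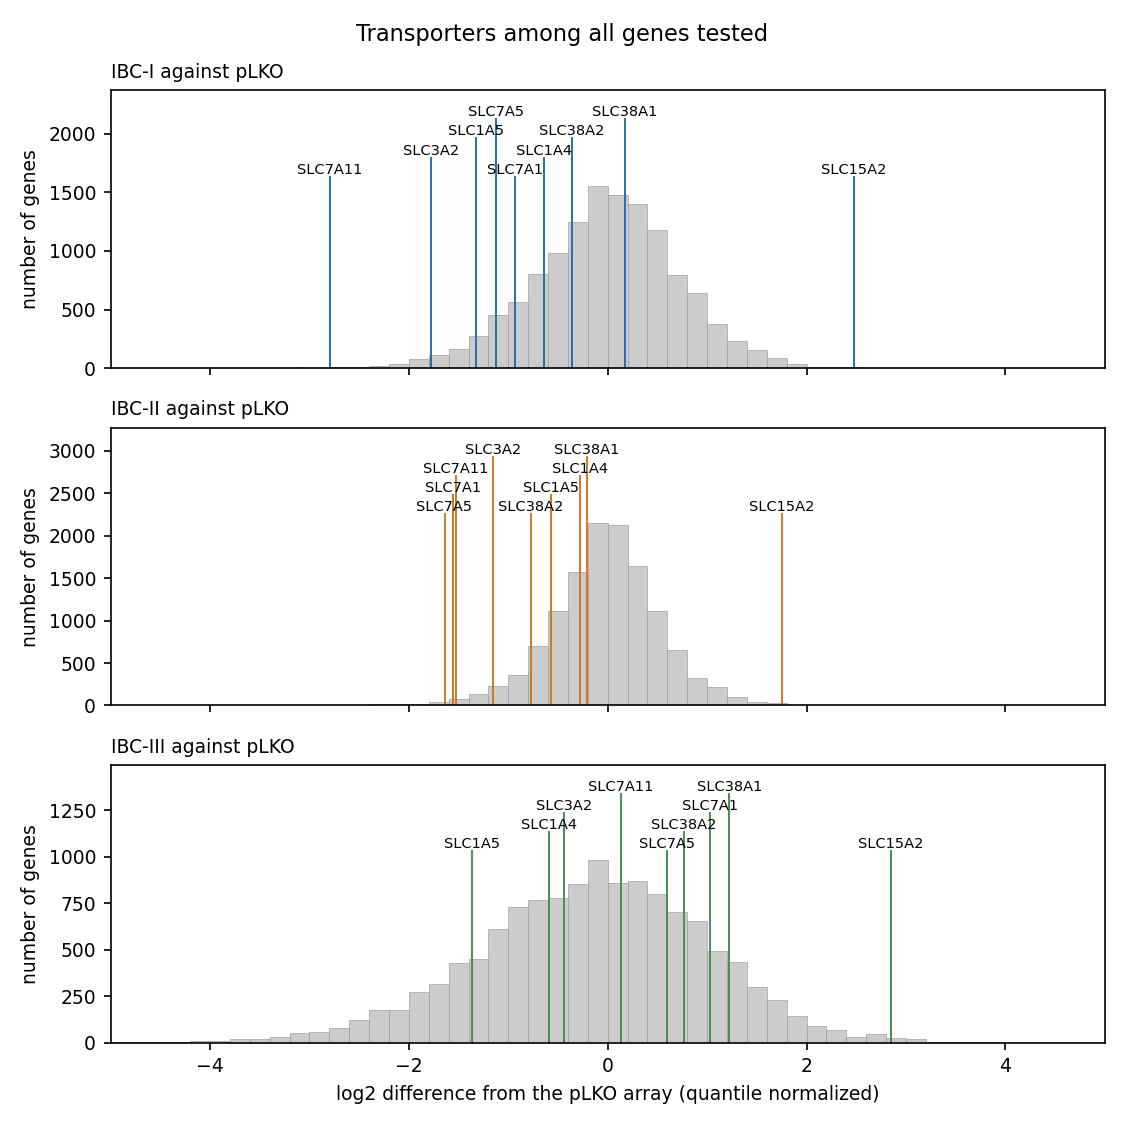
Distribution of the log2 difference from pLKO over the 12728 genes tested (grey bars, number of genes per 0.2 of log2 difference), in 1 panel per shRNA array after quantile normalization, with the 9 carriers marked by vertical lines. SLC15A2 lies at 2.48, 1.75 and 2.85 from top to bottom, and SLC7A11 lies far to the left in IBC-I, at -2.80, and in the middle in IBC-III, at 0.13.

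Both SLC1 carriers of small neutral amino acids were lower than pLKO in all 3 comparisons after normalization. SLC1A5, the glutamine carrier, read 151.9 for IBC-I, 522.9 for IBC-II and 89.5 for IBC-III on its 1 probe set, 208916_at, against 589.4 in pLKO. Each shRNA array lay below pLKO, IBC-II by little. After normalization it was 2.51-fold lower for IBC-I, 1.48-fold lower for IBC-II and 2.58-fold lower for IBC-III, and the sign was the same in the deposited values and with median centring. SLC1A4, its relative, is read by 5 probe sets. The brightest, 209610_s_at, read 346.8, 976.6 and 213.2 in IBC-I, IBC-II and IBC-III, against 889.2 in pLKO, so that IBC-II exceeded pLKO before normalization. The difference in IBC-II was 0.14 as deposited and -0.28 after normalization, and the normalized differences were -0.65 in IBC-I and -0.59 in IBC-III. After normalization 209610_s_at, 209611_s_at and 212811_x_at lay below pLKO with every hairpin, and 212810_s_at did so in IBC-I and IBC-II, with a difference of 0.11 in IBC-III against -1.30 as deposited. In the deposited values none of the 5 did so with every hairpin, since in IBC-II 209611_s_at lay at 0.08, 212811_x_at at 0.012 and 212810_s_at at 0.12. The dim 244377_at went no single way after normalization, at 0.69 for IBC-I, -0.04 for IBC-II and 1.89 for IBC-III, and lay above pLKO on every shRNA array as deposited, with 75.5 for IBC-I, 74.1 for IBC-II and 100.8 for IBC-III, against 61.4 in pLKO, and 209611_s_at dropped under the floor in IBC-III alone, at 4.2 against 81.1 in pLKO. In IBC-I and IBC-III, where both SLC1 carriers lay lowest, the ratios of 3' to 5' control probe sets were also higher than in pLKO, and the part of RNA quality in these differences was not tested.

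The sodium-coupled SLC38 carriers differed from each other. SLC38A2, which cells raise when amino acids are withdrawn, read 773.7 for IBC-I, 1288 for IBC-II and 1006 for IBC-III by its brightest probe set, 222982_x_at, against 1724 in pLKO. All 3 shRNA arrays lay below pLKO as deposited. The normalized differences were -0.36 for IBC-I, -0.78 for IBC-II and 0.77 for IBC-III, the last being -0.78 as deposited. Its other probe sets, 218041_x_at and 220924_s_at, were lower in all 3 comparisons after normalization, at 1.94-fold and 2.47-fold lower in IBC-III. In IBC-II 218041_x_at lay at -0.34 after normalization and at 0.04 as deposited, with a deposited intensity of 1247 against 1210 in pLKO. Probe sets whose name ends in x_at hold probes that are shared with other transcripts, which applies to 2 of the 3 here. For SLC38A1 the brightest probe set, 218237_s_at, read 983.8 for IBC-I, 1667 for IBC-II and 1181 for IBC-III, against 1497 in pLKO, a control value inside the range of the shRNA arrays. The difference was 0.17 for IBC-I, -0.21 for IBC-II and 1.22 for IBC-III after normalization. Each of these signs turned in the deposited values, at -0.61, 0.16 and -0.34, so no direction is given for SLC38A1. Its probe set 224579_at went the same way as the brightest, at 0.14, -0.06 and 0.83 after normalization in IBC-I, IBC-II and IBC-III, and its signs also turned in the deposited values, at -0.64, 0.31 and -0.77. The dimmer 224580_at was lower in each after normalization, at -0.99, -0.11 and -0.49, the value of IBC-II being 0.30 as deposited. The probe set 236857_at stayed between 1.9 and 7.6 on all arrays.

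SLC7A1, the carrier of arginine and lysine, is read by 5 probe sets, of which 3 passed the filter. The brightest, 212295_s_at, read 261.4 for IBC-I, 344.7 for IBC-II and 563.3 for IBC-III, against 797.3 in pLKO, and 212290_at read 271.3, 306.7 and 618 in IBC-I, IBC-II and IBC-III, against 631 in pLKO. In both, IBC-I and IBC-II lay well below pLKO and IBC-III lay nearest to it. The normalized differences of the brightest were -0.94 for IBC-I, -1.56 for IBC-II and 1.03 for IBC-III, the last against -0.50 as deposited. The third tested probe set, 212292_at, was dimmer and lower with every hairpin, with 18.9, 45.9 and 11.1 in IBC-I, IBC-II and IBC-III, against 80.8 in pLKO. The gene's normalized IBC-III value thus depended on the probe set, from -2.05 for 212292_at, which was at the floor there, to 1.51 for 212290_at, which was -0.03 as deposited. The probe sets 206566_at and 215979_s_at did not pass the filter, with 2.4 to 31.4 and 2.7 to 11.1 in the shRNA arrays, against 22.3 and 4.2 in pLKO. In IBC-III the difference of 206566_at was 0.14 after normalization and -0.48 as deposited. Among the probe sets of all members, 10 of the 23 tested were lower in all 3 comparisons, beside 20% of all probe sets, and 1 was higher, beside 19.4%.

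Of 58 other carriers of amino acids and peptides, from the SLC7, SLC1, SLC38, SLC36, SLC43, SLC6 and SLC15 families, the lysosomal exporters and the mitochondrial carriers, 54 had a named probe set and 32 had one bright enough to test. Of these 32, 5 lay below pLKO with every hairpin, 4 lay above it and 23 went both ways or were equal in at least 1, beside the backgrounds of 21.3% lower and 18.8% higher. The medians were -0.04 for IBC-I, 0.02 for IBC-II and -0.10 for IBC-III, close to those of all genes. SLC36A4, a carrier of proline and tryptophan, was the highest of them, with intensities of 77.3, 74.3 and 76.8 in IBC-I, IBC-II and IBC-III, against 24.4 in pLKO, and a difference of at least 1.16 in each. In the deposited values it was at least 3-fold higher with every hairpin, at log2 differences of 1.66, 1.61 and 1.65. The others that were higher throughout by the brightest probe set were SLC25A13, SLC43A2 and SLC7A3. Their differences ranged from 0.17 to 1.46 over the 3 arrays. SLC25A13 is the mitochondrial aspartate and glutamate exchanger, SLC43A2 a carrier of large neutral amino acids and SLC7A3 a carrier of cationic amino acids. Of the 3 tested probe sets of SLC25A13, only 1, the brightest, was higher in all 3 comparisons, and 0 were lower in all 3. In the deposited values SLC43A2 was lower in IBC-III, with 24 against 27.6 in pLKO, and SLC7A3 read 12.6 in IBC-III against 15.7 in pLKO, both under the floor.

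On the lower side stood SLC6A14, a broad carrier of neutral and cationic amino acids, with 75.6 for IBC-I, 131.2 for IBC-II and 28.9 for IBC-III, against 164.5 in pLKO. The taurine carrier SLC6A6 read 56.3, 54.5 and 31.5 in IBC-I, IBC-II and IBC-III, against 101.8 in pLKO. SLC25A18, a mitochondrial glutamate carrier, read 51.5, 76.7 and 41.6 in the 3 shRNA arrays, against 129.4 in pLKO, and SLC43A1, another carrier of large neutral amino acids, read 26.9, 34.3 and 5.3 in them, against 40.4 in pLKO. Each of these 4 genes, and SLC25A15, was lower on every shRNA array on both scales. The other peptide carriers did not follow SLC15A2: SLC15A1 read 28.4, 56.9 and 13.1 in IBC-I, IBC-II and IBC-III, against 33.5 in pLKO, and SLC15A4, which sits in lysosomal membranes, read 121.7, 159.7 and 65.7 in them, against 168.1 in pLKO.

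**Figure D4:**
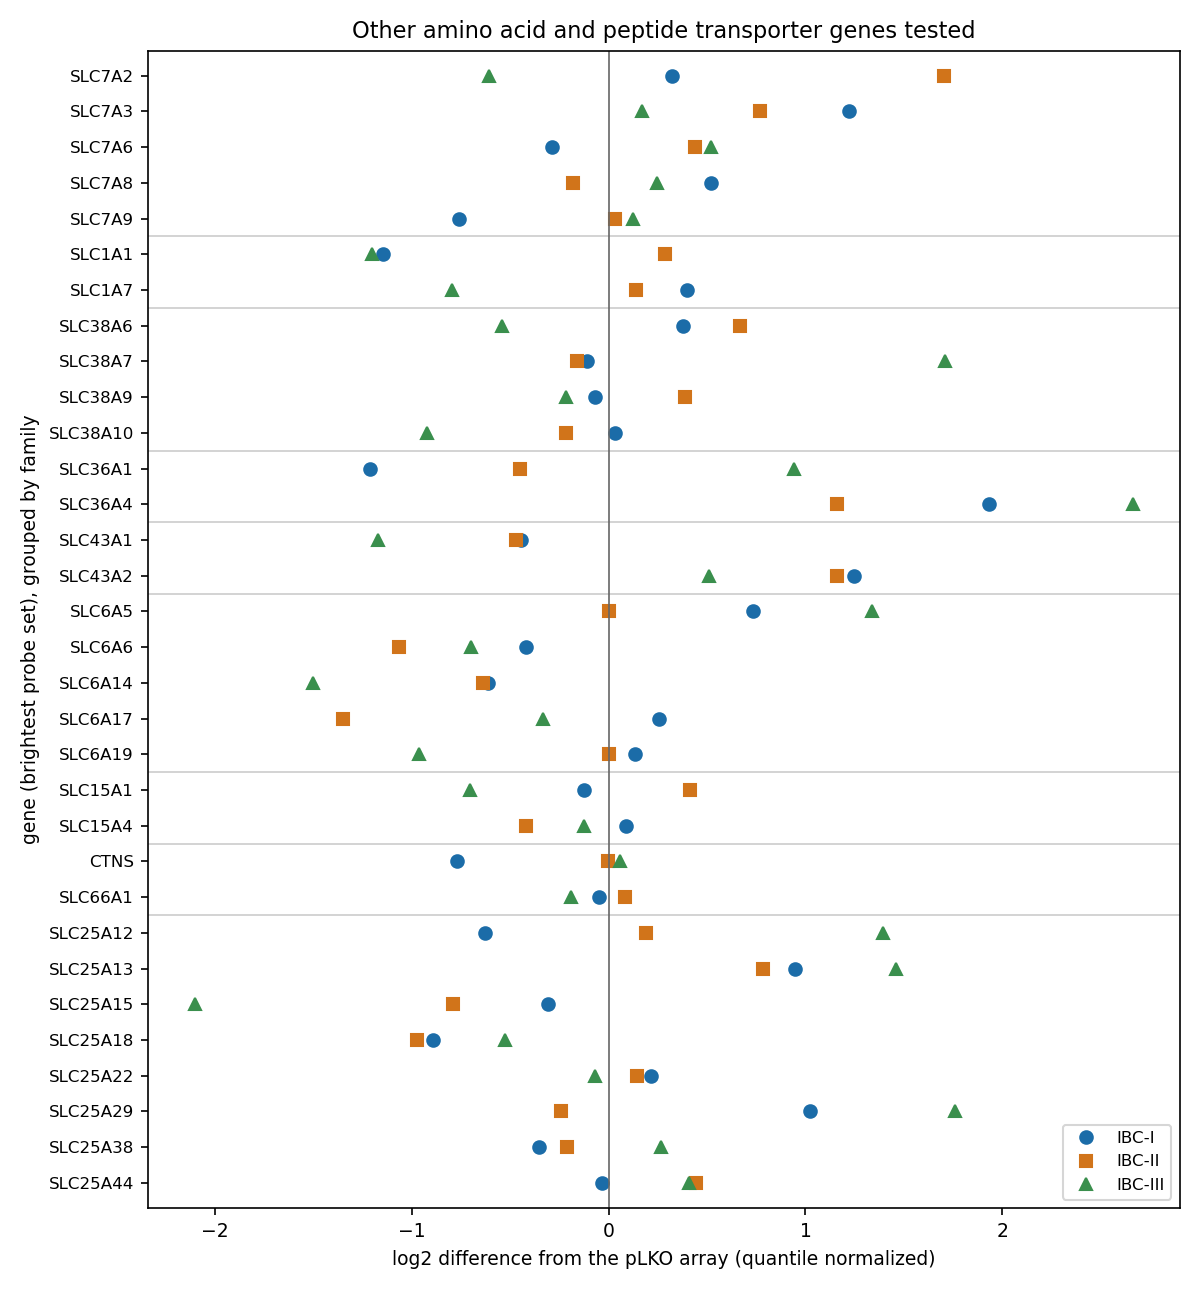
log2 difference from the pLKO array after quantile normalization for the 32 other amino acid and peptide carriers tested, by the brightest probe set, in family order from SLC7 at the top to the mitochondrial carriers at the bottom. Circles stand for IBC-I, squares for IBC-II and triangles for IBC-III. SLC36A4 lies furthest to the right in IBC-III, at 2.66, and SLC25A15 furthest to the left, at -2.10.

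The ATF4 response outside the carriers was set beside them. Of 24 such genes, which include amino acid enzymes, stress factors and tRNA synthetases, 23 were tested, of which 13 lay below pLKO with every hairpin and 0 above it, beside 21.3% and 18.8% of all genes. In IBC-I and IBC-II together 21 of the 23 were lower, beside 30.8% of all genes. As deposited 20 of the 23 were lower with every hairpin, beside 20.4% of all genes, and 20 with median centring, beside 27.2%. The medians were -1.14 for IBC-I, -1.38 for IBC-II and -0.54 for IBC-III, beside the -0.94, -0.78 and 0.60 of the 9 carriers given above. This list was also chosen with earlier results of these arrays known, and nothing particular to it is read from the counts.

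The genes whose pattern lay nearest to those of the outermost carriers were found by the root mean square distance between the 3 log2 differences, over the 12728 genes. For SLC15A2 they were GATA3, a luminal transcription factor, at 0.29, EPN1 at 0.34, LOC100190986 at 0.42, SLC36A4 at 0.48 and ERN2 at 0.48. GATA3 read 3460 for IBC-I, 3990 for IBC-II and 3698 for IBC-III, against 1239 in pLKO, all far above the floor. GATA3 was picked because its differences lie near those of SLC15A2, so nothing about SLC15A2 is read from it. The distances to SLC15A2 also use a pLKO value that was set to the floor. For SLC7A11 they were MNX1 at 0.26, PBX2 at 0.29, ADM2 at 0.38, PIK3C2B at 0.39 and BEX2 at 0.39, all with their lowest intensity in IBC-I and their highest in pLKO. In IBC-I MNX1, PBX2 and ADM2 read 12.5, 14 and 9.6, under the floor. Their distances to SLC7A11 therefore use an IBC-I value that was set to the floor. The 3 differences share the pLKO array, and the distances rest on 4 arrays.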

How the data were processed

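Per the paper's methods, dChip served for the array analysis. The authors deposited 1 linear intensity per probe set and array, and which program or scaling gave these values is unknown here. They were treated as not yet normalized, since the array medians differed. Values of 0 were set to 0.1, the log2 values of all 54675 probe sets were quantile normalized, and values under 16 were set to 16. After leaving out 62 control probe sets, 27307 probe sets, those whose mean log2 intensity reached the median, entered the tests. The platform annotation gave 1 gene for 41097 probe sets, several for 1801 and none for 11777, and symbols were updated by gene identifier for 41043 (GRCh38.p14). The brightest tested probe set represented a gene and was kept under each alternative. A 2-group limma fit (limma 3.58.1 under R 4.3.3) was made with Benjamini-Hochberg adjustment, assuming that the lone pLKO array varies like the others. The fit was run on simulated data with independent noise of fixed size, which does not show how it performs at the spread of these arrays. A 3-fold threshold in every comparison follows the rule given in the study's results. The study's methods instead name statistical significance in all 3 comparisons.

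The members and gene lists were chosen with earlier results of these data known. All probe sets of the members are named. Of the other carriers, up to 4 per direction with the largest smallest difference are named, with SLC15A1, SLC15A4 and SLC25A15 chosen after their values were seen, and the 5 genes nearest to SLC15A2 and to SLC7A11. Alternatives were no normalization, median centring, floors of 1 and 64, no filter, each shRNA array left out, the mean of all probe sets, a 2-fold rule and an intensity trend in limma. The number of arrays limits the precision. Figures were drawn with matplotlib 3.10.9.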

Additional observations from a re-analysis of the deposited data

Results flagged for a closer look

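The 3' to 5' ratios of the control probe sets, which enter none of the comparisons, were higher than in pLKO in 2 of the 3 shRNA arrays. The ACTB 3' to 5' ratio was 9.67 in IBC-I and 42.6 in IBC-III, against 5.29 in pLKO, and that of GAPDH was 2.18 in IBC-I and 13.1 in IBC-III, against 1.09 in pLKO. IBC-II had lower ratios than pLKO for both. Of the carriers, SLC7A5, SLC38A2, SLC7A1 and SLC7A11 were lower than pLKO in IBC-I and IBC-II and higher in IBC-III after normalization, each by its brightest probe set, and the part of RNA quality in that difference was not tested. Other tested probe sets of these genes went both ways in IBC-III. There 218041_x_at and 220924_s_at of SLC38A2, 212292_at of SLC7A1 and 209921_at of SLC7A11 lay below pLKO. Above it lay 212290_at of SLC7A1 and 207528_s_at of SLC7A11.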

How the results depend on the processing

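No paired analysis was possible because there is 1 pLKO array and its label carries no replicate number. The number of carriers lower in all comparisons, 3, became 6 without normalization between arrays, 6 with median centring and 5 with the mean of all probe sets, and ranged from 3 to 7 with 1 shRNA array left out, being 7 without IBC-III. The number higher, 1, became 0 with a floor of 64 and ranged from 1 to 2, being 2 without IBC-II. Of the other carriers, the 5 lower became 8 without normalization, 9 with median centring, 8 with the mean of all probe sets and 8 with no filter, and 8 to 9 with an array left out (8 without IBC-I, 9 without IBC-II and 9 without IBC-III), and the 4 higher became 0 with a floor of 64, 7 with the mean of all probe sets and 7 to 8 with an array left out (8, 7 and 8 in the same order). The count of other carriers with no filter covers all 54 with a probe set, dim ones included, while the remaining counts cover the 32 tested. By the 3-fold rule 49 probe sets were lower and 10 higher. The lower became 96 without normalization, 90 with median centring, 22 with a floor of 64 and 210 by a 2-fold rule, the higher became 246 with a floor of 1, 3 with a floor of 64 and 173 by a 2-fold rule, and leaving out an array gave 95 to 274 lower and 34 to 142 higher (95 and 34 without IBC-I, 274 and 142 without IBC-II, 137 and 69 without IBC-III). A rule over 2 comparisons is met more easily than a rule over 3.

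limma called 0 probe sets except with a floor of 64, which gave 389 lower and 4 higher, and with no filter, which gave 1308 lower and 18 higher. Of these, 363 and 1221 had no spread between the shRNA arrays, and both settings tested all 54613 probe sets, since at a floor of 64 the median is the floor. Of the calls at a floor of 64, 2 were carrier probe sets, SLC1A4 209611_s_at and SLC7A11 209921_at, both at the floor in all 3 shRNA arrays. The mean log2 difference of SLC38A1, 0.40, turned to -0.26 without normalization and -0.13 with median centring, and ranged from -0.025 (without IBC-III) to 0.72 with an array left out. That of SLC38A2, -0.12, ranged from -0.58 to 0.22 (without IBC-II), and that of SLC7A1, -0.49, from -1.27 to 0.051 (without IBC-II). The cause of these changes was not tested. The other 6 carriers kept the sign of their mean under each alternative run. Signal over background limits SLC15A2 and SLC7A11. In the deposited values 55.1% of probe sets lay under 16 in IBC-III, against 43.4% in pLKO. The floor was applied after normalization, where it fell at a deposited intensity of 11.2 in IBC-III and 17 in pLKO.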
